A study of Sus scrofa with 12 samples.

Results

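Mitochondrial ribosomal proteins, the proteins of the ribosome that works inside mitochondria, were followed at the RNA level in porcine oocytes during in vitro maturation. The members are the genes whose pig symbol is MRPL or MRPS followed by a digit, and 64 of the 31908 Ensembl identifiers in the deposited tables carried such a name, 40 of them MRPL and 24 MRPS. By the place of the protein in the ribosome, 42 members belong to the large subunit and 22 to the small subunit, because MRPS30 and MRPS18A sit in the large subunit despite their names. Of the 82 proteins of a hand-written roster of the mammalian mitochondrial ribosome, 8 were matched to no identifier by name and are not analysed here (MRPL1, MRPL21, MRPL23, MRPL32, MRPL53, MRPS16, MRPS17 and MRPS21). No identifier was named MRPS36 either, and that protein, despite its name, is a part of the oxoglutarate dehydrogenase complex. All 64 members were above 0 in at least 1 library, and 55 of them (36 of the large and 19 of the small subunit) reached 1 FPKM in the mean of the 12 libraries and were tested.

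The libraries were made from pools of denuded oocytes, taken from cumulus-oocyte complexes of antral follicles of prepubertal gilts, whose ovaries came from a slaughterhouse. There were 3 groups of 4 libraries. The 0h group is oocytes before maturation culture (germinal vesicle stage), the 22h group is oocytes on the way to metaphase I, and the 46h group is oocytes at metaphase II. Culture was of whole complexes, in a maturation medium with porcine follicular fluid, epidermal growth factor, PMSG and HCG, and the cumulus cells were stripped off with hyaluronidase afterwards. The labels name no genetic change or further treatment, and the time in culture is the only factor. The stage is given for a time point as a whole, and single oocytes of a pool are not said to have been staged, so a pool may hold oocytes of other stages. The paper cites earlier staging by its authors, in which a part of the oocytes at nearby times was not at the named stage. The design text of the series puts the middle time slightly later than the labels do, and the labels' 22h is used here. The labels number the replicates 1 to 4 but do not say whether they are separate collections, so p-values measure the spread between these samples.

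The mitochondrial ribosome translates only the messages that mitochondrial DNA encodes, all of them for subunits of the respiratory chain and the ATP synthase. Its own proteins are encoded in the nucleus, made in the cytosol and imported, and many of them have no counterpart in bacterial ribosomes. In the oocyte, which holds a very large stock of mitochondria, transcription is largely silent once growth ends, and maturation runs on stored maternal RNA that is translated, kept or removed on a schedule.

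Expression was given as FPKM, fragments per kilobase of transcript and scaled to the number of mapped fragments, which is a level relative to the rest of the library and can be compared between genes per length. Total FPKM lay between 697468 and 802184 in the 12 libraries, and the genes reaching 1 FPKM fell in number from 6939 to 7895 a library before culture to 5819 to 6076 at its end. FPKM values carry no counts, so the depth behind each value is unknown. Replicate 4 of 0h stood apart a little, with a mean correlation of 0.950 with the other 0h libraries against 0.964 to 0.987 for every other library within its own stage. Without it, MRPL18 and MRPL34 were also higher and MRPS10 also lower at 22h against 0h, while MRPL52, MRPS18C and MRPS23 lost their calls there. All 12 oocyte markers matched by name reached a mean of 1 FPKM at some stage. Of 15 cumulus and granulosa cell markers 4 did (VCAN, FST, STAR and KITLG), while LHCGR and AMHR2 were listed at 0 in every library and HAS2, PTX3, FSHR, AMH and INHBA stayed at or below 0.26 FPKM. The summed level of the 15 ranged over 54.7 to 101 FPKM in the 0h libraries, 64.9 to 97.4 in those of 22h and 128 to 159 in those of 46h, with VCAN the bulk of it. VCAN was higher at 46h against 0h (log2 fold change 1.18, adjusted p = 0.0015). Of 5 blood markers only CD3E reached 1 FPKM, with a summed level of 1.09 to 1.95 FPKM at 0h and 0.09 to 0.22 at 46h, and it was lower (-1.26, adjusted p = 0.00025). Of 6 endothelial and stromal markers DCN and PECAM1 did, with a sum of 9.76 to 12.4 FPKM at 0h and 22.9 to 25.9 at 46h, and PECAM1 was higher (1.17, adjusted p = 0.00239). Of the oocyte markers, 8 were lower and 1 higher at 46h against 0h (summed level 19916 to 30938 FPKM at 0h and 20567 to 24165 at 46h). The part of these markers in the results below was not tested.

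Most mitochondrial ribosomal protein transcripts were lower at the end of maturation than before it, but not all of them fell at both steps. Of the 39 members called lower at 46h against 0h, 23 were called lower at both steps, 12 only after 22h and 4 only before it. At 22h against 0h, 29 of the 55 members tested were lower and 4 were higher, where 18.9% of all 7013 genes tested were lower and 7.84% higher. At 46h against 22h, 36 were lower and 3 higher, beside 32.6% and 9.87% of all genes. At 46h against 0h, 39 were lower and 6 higher, beside 39.1% and 16.8% of all genes, so that the share of members lower was 70.9%. A gene was called lower or higher when its adjusted p-value in limma was under 0.05 and its fold change over 1.5, on the log2(FPKM + 1) scale, which understates the change of low genes. The median log2 fold change of the members was -0.80 at 22h against 0h, -1.24 at 46h against 22h and -1.998 at 46h against 0h, beside -0.00115, -0.26 and -0.25 over all genes tested. In bulk RNA of pooled oocytes, fewer cells of a kind and less RNA per cell cannot be told apart. The libraries were primed with oligo-dT, so the values count polyadenylated RNA, and poly(A) tail length was not measured. A change of the tail and a change of the RNA amount therefore cannot be told apart either.

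The libraries themselves showed the same split without a model. At 46h, 39 of the 55 members had all 4 libraries below all 4 of 0h, and 6 had all 4 above, beside 39.2% and 18.2% of all genes tested. From 0h to 22h these numbers were 26 below and 5 above, beside 18.6% and 10.3%, and at 46h against 22h they were 38 below and 4 above, beside 35.4% and 13.2%. The filter took the mean over all 12 libraries. MRPL2, MRPL10, MRPL12, MRPL16, MRPL28, MRPL30, MRPL48, MRPL54, MRPS7, MRPS11 and MRPS18C had a mean under 1 FPKM at 46h and passed it through the earlier stages in which they were high, so that a lower value at 46h is in part fixed by the filter for these 11. They are among the members counted above, and for them those counts and medians are a description.

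At 46h against 0h, the scaling of the libraries moved the size of the fall and the number of rising members. With median-of-ratios scaling 39 members were lower and 9 higher at 46h against 0h, and with quantile normalization 39 and 12, against 39 and 6 as deposited. Over all genes, the same scalings gave 2318 lower and 2055 higher, and 1789 lower and 2877 higher, against 2743 lower and 1179 higher as deposited. At 46h against 22h, 34 members were lower and 10 higher with median-of-ratios scaling and 29 and 7 under quantile normalization, against 36 and 3 as deposited. Over all genes this step gave 1803 lower and 1416 higher, and 1340 lower and 1971 higher, against 2283 lower and 692 higher, so that quantile normalization turned the balance of all genes. The members' median there went from -1.24 to -1.02 and -0.76, and that of all genes from -0.26 to 0.02 and 0.21. The same 39 members were lower at 46h against 0h in each of these 3 fits. For those that passed the filter through their high stages this is a description. At 46h against 0h the median of all genes moved from -0.25 as deposited to 0.06 and 0.37, and that of the members from -1.998 to -1.79 and -1.52. The 13 proteins encoded by mitochondrial DNA took 1.79% to 3.76% of total FPKM in the 0h libraries, 8.06% to 12.02% in those of 22h and 12.8% to 16.7% in those of 46h, and that share enters the scaling of every other gene. With these 13 genes taken out and the rest rescaled to one total, the same 39 members were lower and 7 were higher at 46h against 0h. The single steps were less firm. At 46h against 22h, quantile normalization lost 7 of the 36 falling members (MRPL10, MRPL12, MRPL16, MRPL20, MRPL58, MRPS18C and MRPS7) and median-of-ratios scaling 2 (MRPL16 and MRPL58). At 22h against 0h quantile normalization lost MRPL52 and MRPS23, gained MRPS14 as lower and gained MRPS30 as higher.

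**Figure D1:**
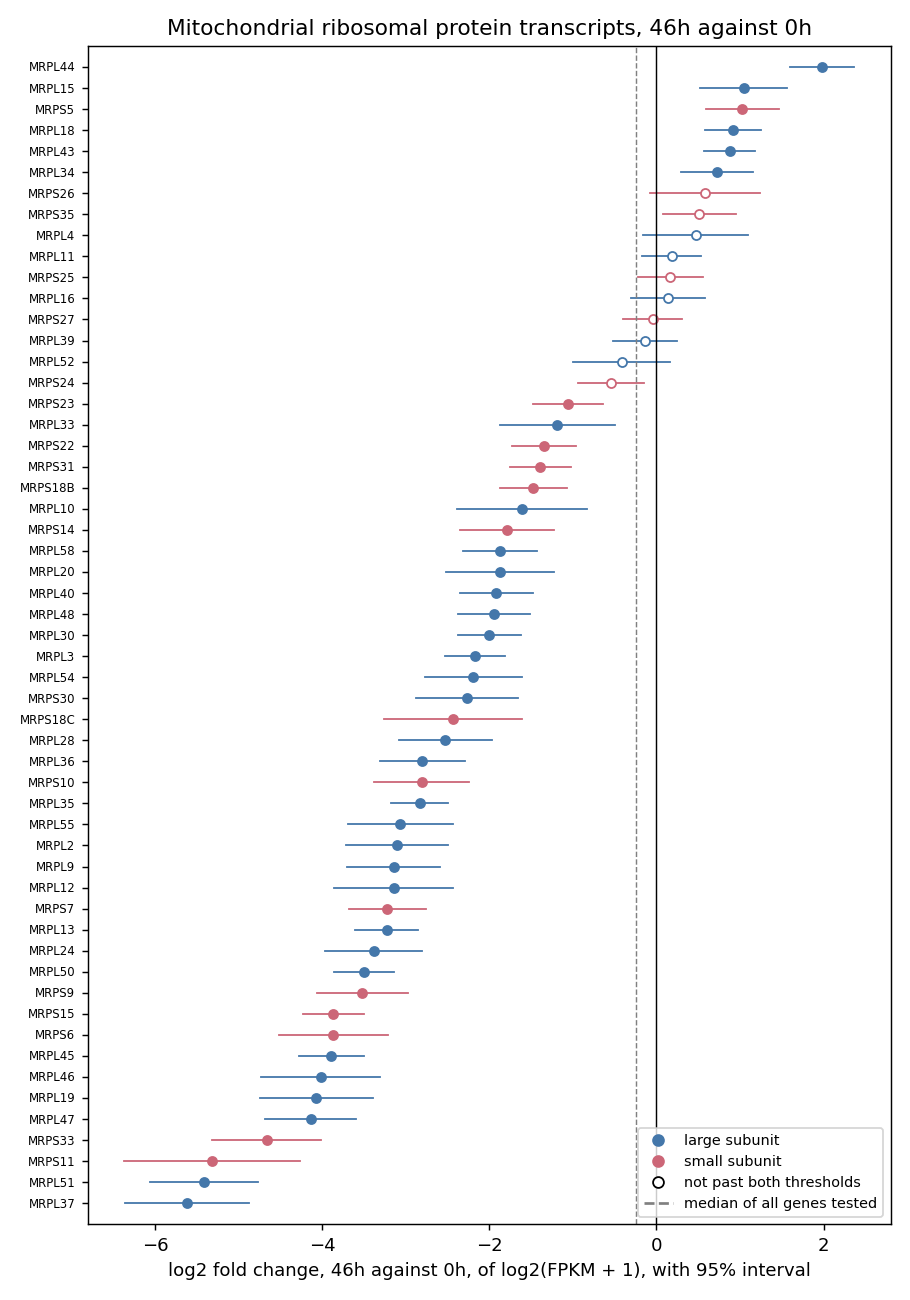
Log2 fold change of log2(FPKM + 1) at 46h against 0h for each of the 55 members tested (points, blue for the large and red for the small subunit) with its 95% interval (lines). Filled points passed both thresholds, the dashed line is the median of all 7013 genes tested (-0.25), and the members run from MRPL37 at -5.61 to MRPL44 at 1.98.

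Summed over all 64 members, the level was 6675, 6922, 7297 and 10029.8 FPKM in the 0h libraries, 6985, 5915, 5105 and 5165 in the 22h libraries and 4005, 3790.4, 4281 and 4012 in the 46h libraries. As a share of total FPKM this came to between 0.957% and 1.28% at 0h, between 0.705% and 0.903% at 22h and between 0.486% and 0.540% at 46h, and the 3 stages did not overlap. Without the mitochondrially encoded genes in the total, the 0h libraries held between 0.975% and 1.33%, those of 22h between 0.779% and 1.03% and those of 46h between 0.571% and 0.619%. With that total 0h and 22h overlapped, replicate 1 of 22h lying above 3 of the 0h libraries, and 46h lay below all others. The fall of the sum was shallower than that of the typical member, of which MRPS14 and MRPL18 made up much. The median of the members' mean levels went from 26.3 FPKM at 0h to 9.65 at 22h and 2.93 at 46h. MRPS14, a small subunit protein with a bacterial counterpart, took 31.7% to 44.8% of the sum at 0h and 18.2% to 21.1% at 46h. MRPL18, a large subunit protein of the central protuberance, went from between 11.4% and 13.6% at 0h to between 42.9% and 46.9% at 46h. The other members together fell from a range of 3677 to 4396 FPKM at 0h to one of 1282 to 1547 FPKM at 46h, or 0.501% to 0.562% of total FPKM at 0h and 0.160% to 0.195% at 46h. At 0h it took 18 members to reach 90% of the sum, at 22h 14 and at 46h 9.

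The large subunit's share of the summed level rose from a median of 50.7% over the 0h libraries to 57.2% at 22h and 71.0% at 46h. Without MRPS14 and MRPL18 the medians were 70.6%, 70.4% and 73.7%, and the 46h libraries (72.9% to 74.2%) lay above those of 0h (70.1% to 71.1%).

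**Figure D2:**
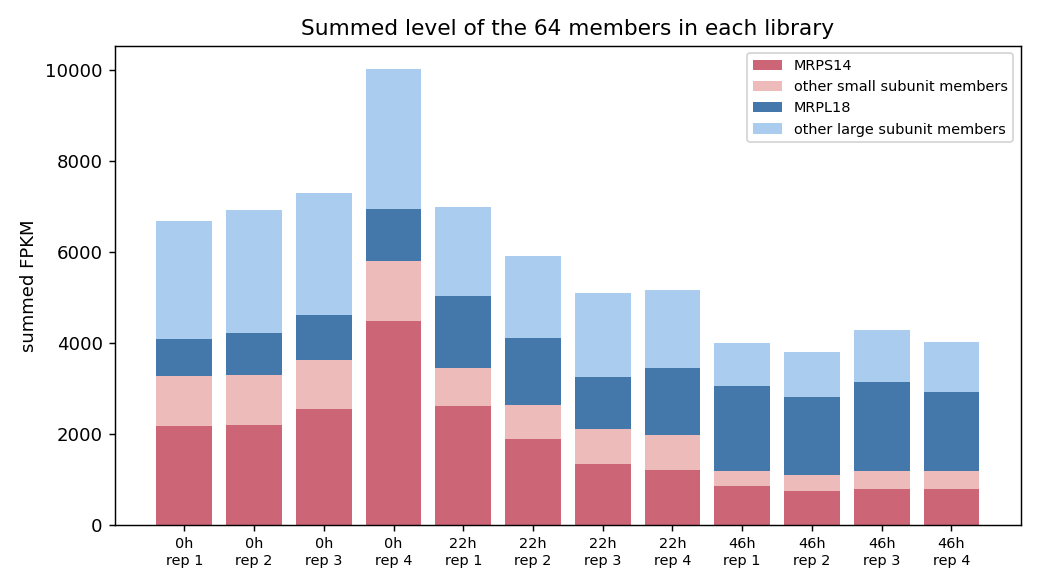
Summed FPKM of the 64 members in each of the 12 libraries (stacked bars), with MRPS14 and MRPL18 drawn apart from the other small subunit (pale red) and large subunit (pale blue) members. The bars reach 6675 to 10029.8 FPKM at 0h and 3790.4 to 4281 at 46h, and the MRPL18 segment grows while the MRPS14 segment shrinks.

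A small number of members went against the rest and rose. MRPL44, a large subunit protein near the tunnel exit that carries a ribonuclease III-like fold, was the only member higher in all 3 comparisons. The gene (ENSSSCG00000016232) lies on chromosome 15 from 125732419 to 125739819 on the plus strand of Sscrofa11.1. Its level was 33.1, 37.9, 31.02 and 31.1 FPKM at 0h, 44.2, 64.2, 77.5 and 74.3 at 22h and 120.5, 144, 143 and 128 at 46h. No 2 stages overlapped, and the mean at 46h was 4.03 times that at 0h. The log2 fold change was 0.92 (SE 0.18, adjusted p = 0.00171) at 22h against 0h, 1.06 (SE 0.18, adjusted p = 0.000243) at 46h against 22h and 1.98 (SE 0.18, adjusted p = 2.88e-07) at 46h against 0h.

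MRPL18, the highest of all members at 46h, is the counterpart of a bacterial protein that binds the 5S rRNA, and a shorter cytosolic form of it has been described under heat stress. Its level was 825, 921, 989 and 1144 FPKM at 0h, 1592, 1481, 1139 and 1470.2 at 22h and 1880.3, 1716, 1955 and 1722 at 46h. All 46h libraries lay above all 22h libraries, and these above all 0h libraries except that the lowest 22h library was just under the highest at 0h. Between 0h and 46h the log2 fold change was 0.91 (SE 0.16, adjusted p = 0.000151). At 22h against 0h it was 0.55 (SE 0.16, adjusted p = 0.0164), short of the 1.5-fold threshold, and it passed when replicate 4 of 0h (0.63) or replicate 3 of 22h (0.65) was left out, with median-of-ratios scaling (0.60) and with TPM without the mitochondrially encoded genes (0.63). Between 22h and 46h it was 0.36 (adjusted p = 0.0694) as deposited, without a call, and 0.72 with median-of-ratios scaling, which passed. MRPL43, a mitochondrion-specific protein of the large subunit, was 168, 187, 193 and 192 FPKM at 0h, 284, 313, 365 and 298 at 22h and 303, 329.8, 369.6 and 365 at 46h. Its rise came before 22h, with a log2 fold change of 0.76 (SE 0.14, adjusted p = 0.00126) at 22h against 0h and 0.12 (interval -0.19 to 0.43, adjusted p = 0.512) at 46h against 22h. MRPS5, the counterpart of a bacterial protein at the entry site of the messenger, was 5.17, 3.26, 4.39 and 4.53 FPKM at 0h, 6.64, 10.9, 11.03 and 12.6 at 22h and 7.39, 10.9, 11.11 and 10.2 at 46h. Its level was far lower than that of the other rising members but it also rose before 22h, with 1.06 (SE 0.20, adjusted p = 0.00139) at 22h against 0h and -0.03 (interval -0.47 to 0.40) at 46h against 22h.

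MRPL15 and MRPL34, large subunit proteins with bacterial counterparts, were called higher at 46h against 0h and, as deposited, at neither step. With median-of-ratios scaling both were called higher at 46h against 22h (MRPL15 by 0.90 and MRPL34 by 0.65 on the log2 scale), and MRPL15 was also called there with quantile normalization (0.91) and without replicate 4 of 22h (0.70). MRPL15 was 29.1, 30.7, 28.7 and 20.7 FPKM at 0h, 21.5, 46.4, 40.9 and 52.6 at 22h and 46.5, 58.9, 62.9 and 60.2 at 46h, with a log2 fold change of 1.05 (SE 0.24, adjusted p = 0.00171) at 46h against 0h. The single 22h library within the 0h range was replicate 1, and without it the change at 22h against 0h was 0.76 and passed, against 0.49 with it. MRPL34 was 58.4, 66.8, 77.3 and 116 FPKM at 0h, 102, 127, 89.4 and 100.3 at 22h and 117, 126, 143 and 128 at 46h. The 46h libraries lay above those of 0h, where replicate 4 was the highest by far, and the log2 fold change was 0.73 (SE 0.20, adjusted p = 0.00554). Without that replicate the rise at 22h against 0h was 0.62 and passed, against 0.43 with it. These 6 members (MRPL44, MRPL18, MRPL43, MRPL15, MRPL34 and MRPS5) were higher at 46h against 0h in every alternative fit and with each library left out in turn.

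**Figure D3:**
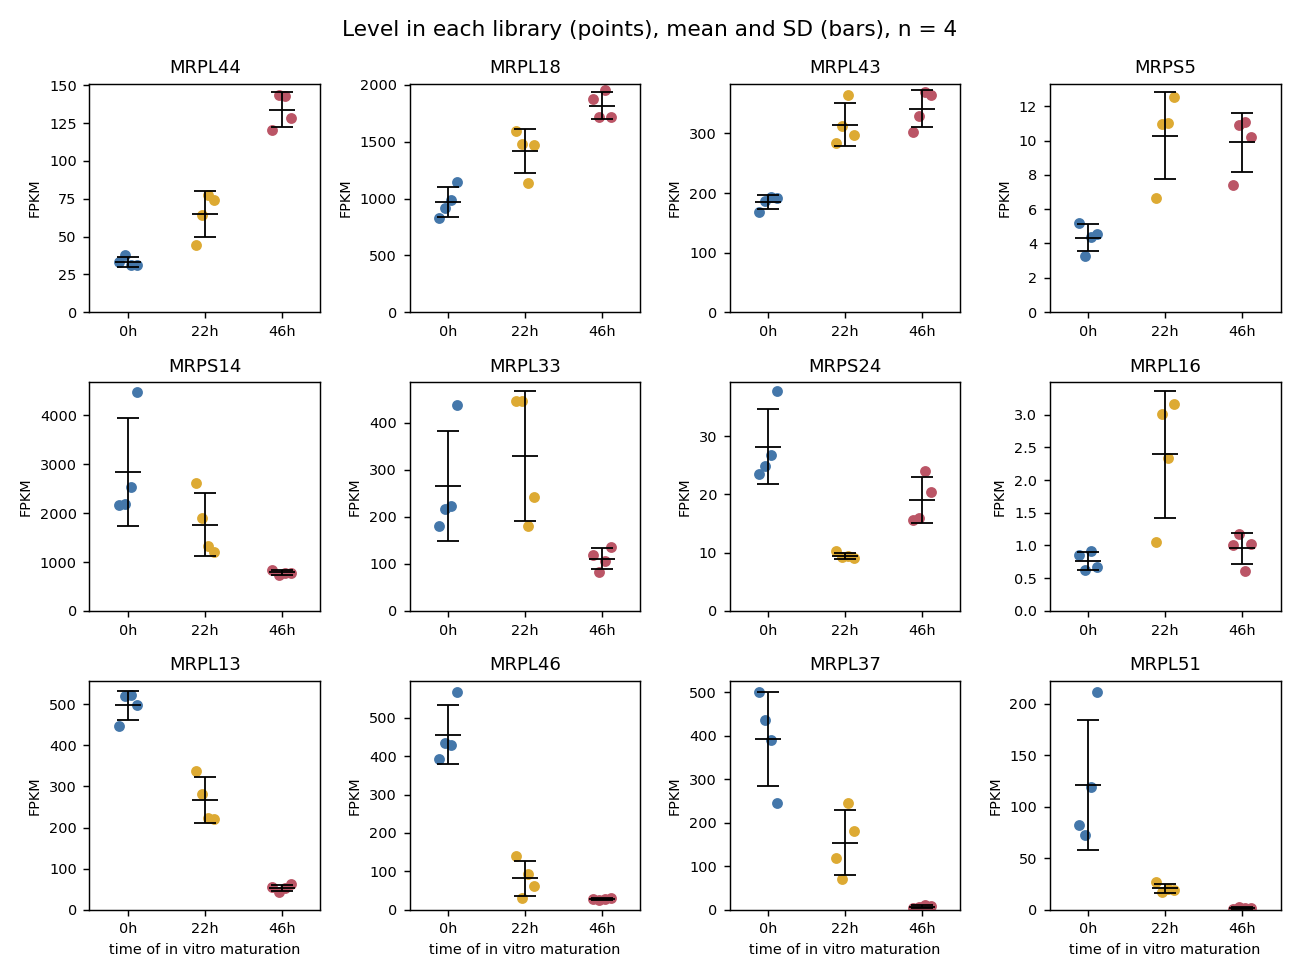
FPKM of 12 members in each library (points, 4 a stage) with the mean and SD (bars), each panel on its own linear axis from 0. The top row holds members higher at 46h than at 0h, the middle row MRPS14 and MRPL33 beside MRPS24, which was lowest at 22h, and MRPL16, which was highest at 22h, and the bottom row members that fell at both steps.

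On the log2(FPKM + 1) scale the falls of MRPL37 and MRPL51, large subunit proteins without a bacterial counterpart, were the steepest. That scale gives low members less weight, and MRPL12, MRPS7 and MRPS11 kept a smaller share of their 0h mean. MRPL37 (ENSSSCG00000032083, chromosome 6 from 158091873 to 158143529, minus strand) was 499, 436, 389.9 and 246 FPKM at 0h, 119, 71.1, 245 and 182 at 22h and 4.86, 5.28, 10.2 and 7.99 at 46h. The 0h and 22h libraries just failed to overlap, and every 46h library lay far below both. From 0h to 46h its log2 fold change came to -5.61 (SE 0.35, adjusted p = 5.17e-09), a mean 55.6 times lower, and most of it came after 22h (-4.17 against -1.44 before). MRPL51 was 82.3, 72.8, 119 and 212 FPKM at 0h, 26.7, 17.3, 20.1 and 18.9 at 22h and 0.75, 2.31, 2.06 and 1.66 at 46h. Its fall was spread over both steps, with -2.38 up to 22h and -3.03 after, and reached -5.42 (SE 0.30, adjusted p = 1.84e-09) at 46h against 0h. Replicate 4 of 0h was its highest library, and at 46h all 4 libraries were at or below 2.31 FPKM.

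MRPL46, a protein of the central protuberance, lost most before 22h. It was 393, 434, 429 and 569 FPKM at 0h, 139.8, 31.1, 92.1 and 62.4 at 22h and 26.5, 24.1, 28.1 and 29.5 at 46h, and the 3 stages did not overlap. The log2 fold change was -2.65 (SE 0.33, adjusted p = 7.13e-05) at 22h against 0h and -1.36 (SE 0.33, adjusted p = 0.00378) at 46h against 22h. MRPL13, among the 5 members with the highest mean, was 448, 521, 522 and 499 FPKM at 0h, 339, 283, 222 and 221 at 22h and 54.5, 42.1, 51.5 and 61.9 at 46h, with little spread within a stage. It lost more after 22h (-2.31) than before it (-0.92), and the mean at 46h was 9.47 times lower than at 0h. MRPL12, the stalk protein through which translation factors are called to the ribosome, was low at every stage. Its level was 7.65, 5.07, 10.9 and 10.7 FPKM at 0h, 2.19, 0.39, 4.02 and 0.87 at 22h and 0.19, 0, 0 and 0 at 46h, and from 0h to 46h the log2 fold change came to -3.14, given as a description because its high stages carried it past the filter. With quantile normalization its fall after 22h, -0.73, no longer passed. MRPL58, also known as ICT1, is a peptidyl-tRNA hydrolase that frees stalled ribosomes and is built into the large subunit. It was 25.6, 25.5, 24.8 and 36.4 FPKM at 0h, 14.7, 10.7, 15.2 and 12.4 at 22h and 6.5, 4.5, 9.53 and 7.73 at 46h, the libraries of the 3 stages not overlapping, with a log2 fold change of -1.87 (SE 0.21, adjusted p = 2.4e-06) at 46h against 0h. The part of its fall after 22h, -0.85, was -0.35 with quantile normalization and -0.53 with median-of-ratios scaling, and passed in neither.

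Other large subunit members had no call up to 22h and fell afterwards. MRPL19 was 99.8, 82.5, 66.7 and 47.9 FPKM at 0h, 68.5, 71.1, 72.6 and 63.5 at 22h and 1.49, 7.41, 2.35 and 3.99 at 46h. Between 0h and 22h its log2 fold change was -0.06 (interval -0.73 to 0.62), and between 22h and 46h it was -4.01 (SE 0.31, adjusted p = 1.34e-07). MRPL50 was 21.5, 25.6, 22.7 and 20.2 FPKM at 0h, 21.1, 16.6, 17.3 and 15.8 at 22h and 1.33, 0.82, 0.7 and 1.51 at 46h, and took the same course, with -0.33 (adjusted p = 0.144) and then -3.17 (SE 0.17, adjusted p = 2.22e-09). MRPS30, which has no bacterial counterpart and lies in the large subunit, was 47.9, 40.9, 34.02 and 29.7 FPKM at 0h, 34.1, 54.6, 88.5 and 79.5 at 22h and 4.48, 8.97, 8.44 and 7.02 at 46h. The highest mean was thus at 22h, although the change up to 22h did not pass (0.67, adjusted p = 0.0868), and the later fall was -2.93 (SE 0.28, adjusted p = 1.11e-06). Without replicate 1 of 22h the earlier rise was 0.94 and passed, and it also passed with quantile normalization. MRPL33, one of the smallest members, was 182, 217, 224 and 439 FPKM at 0h, 447, 446, 179.9 and 243 at 22h and 119, 83.1, 106 and 135 at 46h. The 0h and 22h libraries overlapped, and the fall after 22h was -1.48 (SE 0.32, adjusted p = 0.00173).

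In the small subunit, MRPS14 had the highest mean of the family at 0h and 22h, although in replicate 4 of 22h MRPL18 was higher (1470.2 FPKM). Its level was 2173, 2193, 2542 and 4489 FPKM at 0h, 2617, 1892, 1332 and 1197 at 22h and 843, 741, 779 and 780.2 at 46h. Replicate 4 gave 0h its wide spread, and the 0h and 22h libraries overlapped (log2 fold change -0.70, adjusted p = 0.0593), whereas all 46h libraries lay below all others. Between 0h and 46h its log2 fold change was -1.79 (SE 0.26, adjusted p = 3.81e-05). Up to 22h the fall passed without replicate 1 of 22h, at -0.91, and also with TPM and with quantile normalization. MRPS11 and MRPS33 fell the most in this subunit on that scale, although MRPS7 kept a smaller share of its 0h mean than either. MRPS11, which has a bacterial counterpart at the platform, was 48.5, 37.2, 51.8 and 73.9 FPKM at 0h, 18.3, 1.45, 12.9 and 8.79 at 22h and 0, 0, 0.53 and 0.94 at 46h, and was listed at 0 in 2 of the 46h libraries. As a description, since it too passed the filter through its high stages, its log2 fold change was -5.32 at 46h against 0h. On the log2(FPKM + 1) scale the parts up to 22h (-2.54) and after (-2.77) were nearly equal. The means themselves were 5.1 times lower at 22h than at 0h and 28.2 times lower at 46h than at 22h. MRPS33 was 128, 121, 171 and 289 FPKM at 0h, 75.2, 26.4, 37.8 and 39.2 at 22h and 6.6, 5.11, 5.52 and 5.25 at 46h, no 2 stages overlapping, with -4.66 (SE 0.30, adjusted p = 9.11e-09) at 46h against 0h. MRPS7, which binds early in the assembly of the bacterial small subunit, was 8.35, 6.15, 10.1 and 11.7 FPKM at 0h, 2.44, 0.96, 1.06 and 0.98 at 22h and 0, 0, 0.23 and 0 at 46h. It was listed at 0 in 3 of the 46h libraries, and from 0h to 46h its log2 fold change came to -3.22, again a description for the reason given for MRPS11. With quantile normalization the part after 22h, -0.54, did not pass the fold change of 1.5.

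Not every small subunit member took that way. MRPS24 was lowest at 22h, with 23.4, 24.9, 26.7 and 37.8 FPKM at 0h, 10.2, 9.2, 9.44 and 9.05 at 22h and 15.6, 15.99, 24.01 and 20.4 at 46h. The 22h libraries lay below all others, the fall being -1.46 (SE 0.18, adjusted p = 7.24e-05) and the return 0.91 (SE 0.18, adjusted p = 0.000884), and the difference between 46h and 0h, -0.54, was under the fold change of 1.5. It passed with TPM (-0.65) and without replicate 1 of 0h (-0.62), replicate 2 of 0h (-0.59) or replicate 3 of 46h (-0.66), and was -0.16 with median-of-ratios scaling and -0.01 under quantile normalization. MRPS35, a mitochondrion-specific protein, was 8.17, 10.4, 9.83 and 6.09 FPKM at 0h, 5.36, 5.83, 8.24 and 7.75 at 22h and 12.02, 9.64, 12.7 and 16.4 at 46h. It was higher at 46h than at 22h by 0.81 (SE 0.20, adjusted p = 0.00462). Against 0h its change was 0.51 as deposited, below that fold change, and it passed under quantile normalization (1.15), with median-of-ratios scaling (0.88), with TPM without the mitochondrially encoded genes (0.61) and without replicate 2 of 0h (0.60) or replicate 2 of 46h (0.63). MRPL16 of the large subunit showed the reverse of MRPS24, with 0.85, 0.62, 0.92 and 0.67 FPKM at 0h, 1.05, 3.01, 2.34 and 3.17 at 22h and 1.01, 1.17, 0.61 and 1.03 at 46h. Its mean was over 1 FPKM at 22h alone, so it passed the filter through the stage in which it was high, and its differences are given as a description. They were 0.89 on the log2 scale at 22h against 0h, which put it among the 4 called higher there, and -0.75 at 46h against 22h, a call that was lost with quantile normalization (-0.23) and with median-of-ratios scaling (-0.55). With quantile normalization MRPL16 was also called higher at 46h against 0h.

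The other members are given by their course. Of the 23 members lower in all 3 comparisons, those not yet described are MRPL2, MRPL9, MRPL24, MRPL28, MRPL35, MRPL36, MRPL40, MRPL45, MRPL47, MRPL55, MRPS6, MRPS9, MRPS15 and MRPS18C. Their log2 fold changes at 46h against 0h ran from -4.14 (MRPL47) to -1.92 (MRPL40). MRPL45, which lies at the tunnel exit and helps tie the ribosome to the inner membrane, was 96.7 ± 4.79, 37.02 ± 9.16 and 5.58 ± 0.411 FPKM at the 3 times (SD, n = 4, here and below in the order 0h, 22h and 46h). MRPL47, at the tunnel exit as well, was 53.4 ± 8.52, 16.2 ± 8.63 and 2.08 ± 0.298 FPKM at the 3 times. MRPS6 was 65.5 ± 14.4, 17.5 ± 2.96 and 3.9 ± 2.05 FPKM at the 3 times. Their means at 46h were 17.3, 25.7 and 16.8 times lower than at 0h, in that order. Of the 12 members called lower at 46h against 22h and not at 22h against 0h, those not yet described are MRPL3, MRPL10, MRPL20, MRPL54, MRPS10, MRPS22 and MRPS31, with log2 fold changes at 46h against 22h from -2.25 (MRPS10) to -0.98 (MRPL10). MRPS31 was 250.4 ± 23.2, 332 ± 51.2 and 95.9 ± 17.4 FPKM at the 3 times, so that its mean was highest at 22h, and MRPL3 was 69.6 ± 5.72, 62.9 ± 9.42 and 14.8 ± 2.86 FPKM at the 3 times. Whether the 2 steps differed was not tested. MRPL20 stood at -0.76 (interval -1.41 to -0.11) at 22h against 0h, and was called lower there when replicate 1 of 0h or replicate 4 of 46h was left out. The call of MRPL10 at 46h against 22h was lost when replicate 1 or 3 of 22h or replicate 1, 2 or 4 of 46h was left out. It was also lost with the replicate number as a block. MRPL30, MRPL48, MRPS18B and MRPS23 fell up to 22h and had no call after that as deposited. At 46h against 0h they were lower by -1.998, -1.94, -1.47 and -1.06 on the log2 scale. With a pseudocount of 0.1 and with TPM, MRPL30, MRPL48 and MRPS18B were also called lower at 46h against 22h. For each of these, every 46h library lay below every 22h library. MRPL30 was over 1 FPKM in mean at 0h alone and passed the filter through that stage. MRPS23 remained one of the most abundant members, at 309 ± 55.3, 198 ± 50.96 and 146 ± 10.2 FPKM at the 3 times.

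As deposited, no call was made in any comparison for MRPL4, MRPL11, MRPL39, MRPS25, MRPS26 and MRPS27, and MRPL52 was called lower at 22h against 0h alone. With median-of-ratios scaling MRPL4, MRPL11, MRPL52 and MRPS26 were called higher at 46h against 22h, and there quantile normalization called MRPL4, MRPL52 and MRPS26 higher. MRPL11, a stalk protein like MRPL10 and MRPL12, was 85.4 ± 8.4, 78.3 ± 10.1 and 97.8 ± 17.8 FPKM at the 3 times, and from 0h to 46h its log2 fold change came to 0.18 with an interval of -0.17 to 0.54. MRPL39 was 5.55 ± 0.58, 4.88 ± 1.45 and 4.96 ± 0.467 FPKM at the 3 times (-0.14, interval -0.51 to 0.24), and MRPS27 was 2.29 ± 0.258, 2.51 ± 0.717 and 2.19 ± 0.365 FPKM at the 3 times (-0.05, interval -0.40 to 0.31). On the log2(FPKM + 1) scale none of these 3 intervals reaches a change of 1.5-fold in either direction. That scale understates the change of low genes, so for MRPL39 and MRPS27 this does not carry over to FPKM itself. MRPL4 and MRPS26 had wider spreads, with 0.47 (interval -0.16 to 1.10) and 0.58 (interval -0.08 to 1.24), and both were higher at 46h against 0h under both median-of-ratios scaling and quantile normalization. MRPS25 was 2.65 ± 0.661, 3.02 ± 0.87 and 3.05 ± 0.237 FPKM at the 3 times (0.16, interval -0.22 to 0.55), and with quantile normalization MRPS25 and MRPS27 were called higher at 46h too. The calls of MRPL52, MRPS18C and MRPS23 at 22h against 0h depended on single libraries. All 3 were lost without replicate 4 of 0h, replicate 2 of 22h or replicate 4 of 22h, and 1 or 2 of them without several other libraries. With the replicate number as a block MRPL52 and MRPS18C were lost.

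The 9 members under the filter were put to a two-sided exact permutation test of 4 against 4 libraries, which cannot go below p = 0.0286. Its p-values were not adjusted for the number of members and comparisons. MRPS18A, the relative of MRPS18B and MRPS18C that is built into the large subunit, was 3.27, 1.05, 2.4 and 1.6 FPKM at 0h and 0.21, 0.18, 0.19 and 0.49 at 22h. It was listed at 0 in all 46h libraries (exact p = 0.0286 in each comparison). MRPL17, a tunnel exit protein, was 1.26, 1.21, 2.13 and 2.14 FPKM at 0h, 0.3, 0.09, 0.23 and 0.11 at 22h and 0, 0, 0 and 0.02 at 46h, no 2 stages overlapping (exact p = 0.0286 in each comparison). MRPS12, which in bacteria helps to check the codon in the decoding centre, was 0.18, 0.16, 0.32 and 1.26 FPKM at 0h, 0.29, 0.13, 0.13 and 0.23 at 22h and 0, 0.14, 0.14 and 0 at 46h. Its 46h libraries lay below those of 0h (exact p = 0.0286), also where replicate 4 of 0h is set aside, and the 22h libraries overlapped with both. MRPL22 was 0.83, 1.07, 1.05 and 2.22 FPKM at 0h, 0.37, 0.22, 0.35 and 0.25 at 22h and 0.32, 0.08, 0.15 and 0.1 at 46h (exact p = 0.0286 for 22h against 0h and for 46h against 0h). MRPL38 overlapped between the stages, with means of 1.13, 0.662 and 0.583 FPKM (exact p = 0.114 for 46h against 0h). MRPL49, MRPL57, MRPS2 and MRPS34 never exceeded 0.43 FPKM in any library, and their stages overlapped.

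Members were also counted by their place in the ribosome, beside 39.1% of all genes lower and 16.8% higher at 46h against 0h. In that comparison, 26 of 36 large subunit members were lower and 5 higher (median log2 fold change -2.18), and 13 of 19 small subunit members were lower and 1 higher (median -1.47). Members with a bacterial counterpart counted 24 lower and 4 higher of 32 (median -2.66), and mitochondrion-specific ones 15 lower and 2 higher of 23 (median -1.47). Around the peptide tunnel exit, 3 of 5 were lower (MRPL24, MRPL45 and MRPL47), 1 was higher (MRPL44) and 1 had no call (MRPL39). In the central protuberance, 4 of 6 were lower (MRPL40, MRPL46, MRPL48 and MRPL55), 1 was higher (MRPL18) and MRPL52 had no call. In the stalk, MRPL10 and MRPL12 were lower and MRPL11 had no call. Members that passed the filter through their high stages, among them MRPL10, MRPL12 and MRPL48, are in these counts, which for them are a description. No difference between these groups was tested, and the last 3 hold too few members to be read against the share over all genes.

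Promoter windows were read from the RefSeq annotation of Sscrofa11.1, from 250 bases before to 50 bases after the start of the gene, for 62 of the 64 members and for 19556 protein-coding genes in all. Letters of 3 factors known to act on genes for mitochondrial proteins were searched on both strands. GCGCNTGCGC (NRF1) was in 11.3% of the members and 6.31% of all windows, CCGGAAG (the ETS family, with NRF2) in 27.4% and 10.999%, and AAGATGG (YY1) in 16.1% and 5.27%. AAGATGG contains ATG and can therefore match at a start codon, and no overlap between the 3 motifs was sought. For MRPL46 the match falls at its annotated start codon. The windows of MRPL46 and MRPS11 overlap there, so the same stretch is counted for both. Such a match is a description and not a site. Among the 39 members lower at 46h against 0h, 5 had the NRF1 letters, 10 the ETS letters and 7 the YY1 letters, and among the 6 higher the numbers were 1, 2 and 0. In 10 members the window held a match to one of the motifs and another gene started within 1000 bases on the opposite strand. Of these, 4 are shown with the match in capitals, chosen after their values were seen to have both falling and rising members. MRPL46 (chr1:191321740-191322039, plus strand) reaches over the start of MRPS11, MRPL51 (chr5:64167168-64167467, plus strand) is among the steepest falls, and MRPL15 (chr4:77083546-77083845, minus strand) and MRPL18 (chr1:7589988-7590287, minus strand) rose.
MRPL46: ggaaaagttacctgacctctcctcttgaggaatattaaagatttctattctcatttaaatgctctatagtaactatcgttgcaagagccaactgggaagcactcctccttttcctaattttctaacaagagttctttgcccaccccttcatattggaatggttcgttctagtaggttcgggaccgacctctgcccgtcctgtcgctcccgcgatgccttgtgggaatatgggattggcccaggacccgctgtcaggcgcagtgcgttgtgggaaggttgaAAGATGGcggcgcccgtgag
MRPL51: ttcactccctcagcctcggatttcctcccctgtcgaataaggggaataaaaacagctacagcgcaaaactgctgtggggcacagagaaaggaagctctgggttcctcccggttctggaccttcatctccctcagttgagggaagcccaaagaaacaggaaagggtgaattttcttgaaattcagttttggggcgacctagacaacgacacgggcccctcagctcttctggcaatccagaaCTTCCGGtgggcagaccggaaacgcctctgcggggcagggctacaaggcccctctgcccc
MRPL15: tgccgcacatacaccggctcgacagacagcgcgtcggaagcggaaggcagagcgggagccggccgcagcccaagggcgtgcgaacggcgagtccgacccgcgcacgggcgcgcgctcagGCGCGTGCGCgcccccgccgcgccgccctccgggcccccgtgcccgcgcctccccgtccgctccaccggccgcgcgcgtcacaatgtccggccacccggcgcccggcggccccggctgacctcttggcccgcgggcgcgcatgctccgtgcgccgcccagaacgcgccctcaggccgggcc
MRPL18: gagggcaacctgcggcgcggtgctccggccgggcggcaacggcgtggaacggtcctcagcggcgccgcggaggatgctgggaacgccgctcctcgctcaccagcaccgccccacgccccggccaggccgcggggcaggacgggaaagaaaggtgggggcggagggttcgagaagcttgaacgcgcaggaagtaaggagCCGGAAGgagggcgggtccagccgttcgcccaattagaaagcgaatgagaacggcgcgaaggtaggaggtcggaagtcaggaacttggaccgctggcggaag

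A protein-coding gene started on the opposite strand, pointing away, within 1000 bases of 16 members, or 25.8% of the 62, beside 10.3% of all genes. MRPL46 and MRPS11 start 39 bases apart on chromosome 1 and both fell at both steps, as given above. Only the short stretch between the starts is upstream of both, and the greater part of the window shown lies within MRPS11. Of 8 members that were lower at 46h against 0h and had a partner tested, the partner was lower for 3, higher for 3 and without a call for 2, numbers too small to set against the 39.1% of all genes that were lower. These 8 count the pair of MRPL46 and MRPS11 from both sides. MITD1, which acts in cell division and starts 36 bases from MRPL30, rose, at 61.4 ± 16.8 FPKM before culture and 166 ± 16.6 FPKM at 46h (log2 fold change 1.45, SE 0.19, adjusted p = 1.14e-05), while MRPL30 fell from a mean of 3.55 to 0.12 FPKM. NDUFB5, a subunit of respiratory complex I that starts 23 bases from MRPL47, was 426 ± 55.2 FPKM before culture and 328 ± 25.3 FPKM at 46h (log2 fold change -0.37, SE 0.17, adjusted p = 0.0702), against 53.4 and 2.08 FPKM for MRPL47. TCP1, a subunit of the cytosolic chaperonin, starts 103 bases from MRPL18 and was 50.1 ± 4.74 FPKM before culture and 26.4 ± 3.58 FPKM at 46h (log2 fold change -0.90, SE 0.16, adjusted p = 0.000181), lower where MRPL18 was higher. NCAPD2, a condensin subunit 8 bases from MRPL51, was at or near 0 in mean at every stage, so that this pair gives no comparison. LYPLA1, an acyl-protein thioesterase 29 bases from MRPL15, rose with it, at 3.23 ± 0.947 FPKM before culture and 7.63 ± 1.99 FPKM at 46h (log2 fold change 1.03, SE 0.21, adjusted p = 0.000757). The libraries do not keep the strand of the RNA, so reads from overlapping transcripts of such neighbours cannot be told apart.

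Members are short transcripts. Their median annotated length was 1330 bases, with 341.5 bases of 3′ UTR, beside 2975.5 and 811 bases over all 19556 genes. In oocytes, cytoplasmic polyadenylation elements near the end of the 3′ UTR mark stored messages for a change of their poly(A) tail. The letters TTTTAT or TTTTAAT, searched on the transcript strand in the last 150 bases of the 3′ UTR (a T-rich pair that can overlap with each other), were in 12.9% of the members (8 of 62) and 20.1% of all genes. Of the 39 members lower at 46h against 0h, 3 had them (MRPL13, MRPL19 and MRPL33), of the 6 higher 1 (MRPL44), of the 10 without a call 3 (MRPL11, MRPL16 and MRPS27), and of 7 under the filter with a model 1 (MRPL49). The sites of the 4 members with a call are shown with the motif in capitals, for MRPL44 at chr15:125739720-125739749 (plus strand), MRPL13 at chr4:18671437-18671466 (plus strand), MRPL19 at chr3:67604662-67604691 (minus strand) and MRPL33 at chr3:111428864-111428893 (minus strand).
MRPL44: taggtgtaTTTTATtcccttctagctttag
MRPL13: atacattaTTTTATagaatcgttttactgt
MRPL19: attcatcaTTTTATgggtattattttttga
MRPL33: ctggatatTTTTATagcccttaataaaagt

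The motif ended 86 bases before the annotated transcript end in MRPL44, 73 in MRPL13, 65 in MRPL19 and 30 in MRPL33. A polyadenylation signal (AATAAA or ATTAAA in the last 50 bases) was found in all of these but MRPL19. All 6 rising members had such a signal, as did all 10 members tested without a call, 26 of the 39 falling ones and 61.9% of all genes.

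Proteins of the same ribosome that carry other names were counted apart. Of the 4 tested, 3 were lower at 46h against 0h and none was higher, too few to read against the 39.1% and 16.8% of all genes. GADD45GIP1, the large subunit protein also called CRIF1, was 27.4 ± 11.9, 4.59 ± 1.9 and 0.09 ± 0.0606 FPKM at the 3 times (SD, n = 4). Its log2 fold change was -4.62 at 46h against 0h, given as a description because its high stages carried it past the filter. DAP3, a small subunit protein that binds GTP, was 8.79 ± 1.79, 7.28 ± 0.299 and 0.295 ± 0.17 FPKM at the 3 times. It was called lower at 46h against 22h and not at 22h against 0h (log2 fold change -2.91 at 46h against 0h). DAP3 also passed the filter through its high stages, so these calls and this change are a description. PTCD3 was 6.95 ± 1.13, 3.13 ± 0.826 and 1.03 ± 0.253 FPKM at the 3 times, with -1.96 (SE 0.18, adjusted p = 2.87e-07). CHCHD1 had no call, at 2.46 ± 2.43, 3.24 ± 2.04 and 3.67 ± 1.14 FPKM at the 3 times. AURKAIP1 was under the filter.

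Factors that build or run the mitochondrial ribosome were counted beside the 39.1% of all genes lower and 16.8% higher at 46h against 0h. Of 16 genes tested for ribosome assembly and rRNA modification, 9 were lower and 2 higher at 46h against 0h (median log2 fold change -0.81). Their median after 22h, -0.28, was near that of all genes, -0.26. TFB1M, the methyltransferase of the small subunit rRNA, was 14.4 ± 1.42, 6.14 ± 1.65 and 1.79 ± 0.548 FPKM at the 3 times, and MALSU1, an assembly factor of the large subunit, was 5.9 ± 1.28, 2.57 ± 0.489 and 0.0475 ± 0.095 FPKM at the 3 times. Both were lower at both steps, for MALSU1 as a description because its high stages carried it past the filter. The 2 that rose were FASTKD2, an RNA-binding protein of the mitochondrial RNA granules, at 38.9 ± 21.6, 42.9 ± 10.5 and 79.8 ± 23.4 FPKM at the 3 times (log2 fold change 1.16, SE 0.36, adjusted p = 0.0126), and MTERF3, at 207 ± 24.04, 233 ± 45.2 and 333 ± 56.6 FPKM at the 3 times (log2 fold change 0.67, SE 0.18, adjusted p = 0.00551). Of 13 translation factors, 8 were lower and 1 higher (median -1.39). TUFM, the mitochondrial elongation factor Tu, was 16.3 ± 6.34, 9.24 ± 4.1 and 1.92 ± 0.726 FPKM at the 3 times, with -2.54 (SE 0.30, adjusted p = 4.81e-06). The member that rose was LRPPRC, which stabilises mitochondrial messages, at 9.87 ± 2.32, 13.2 ± 2.76 and 15.8 ± 3.9 FPKM at the 3 times (log2 fold change 0.62, SE 0.21, adjusted p = 0.0209). MRRF, the ribosome recycling factor, was 102 ± 2.68, 69.03 ± 12.9 and 154 ± 11.95 FPKM at the 3 times and the only one of the 13 higher at 46h against 22h (log2 fold change 1.16, SE 0.16, adjusted p = 3.02e-05). GFM1, the elongation factor G of mitochondria, was 6.82 ± 0.882, 6.33 ± 0.909 and 6.21 ± 0.545 FPKM at the 3 times (log2 fold change -0.11, SE 0.15, adjusted p = 0.532).

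Genes for mitochondrial DNA upkeep, transcription and RNA processing counted 5 lower and 4 higher of 13 (median 0.07). The share lower, 38.5%, is near the 39.1% of all genes. The 4 were POLG2, the accessory subunit of the mitochondrial DNA polymerase, at 67.6 ± 7.39, 132 ± 27.4 and 135 ± 9.11 FPKM at the 3 times, SUPV3L1, the helicase of the mitochondrial degradosome, PNPT1, its nuclease, and FASTKD1, with log2 fold changes of 0.996, 1.07, 1.02 and 0.67 at 46h against 0h. SSBP1, the single-stranded DNA-binding protein of mitochondria, was 287 ± 95.1, 96.2 ± 32.2 and 2.17 ± 0.993 FPKM at the 3 times (log2 fold change -6.50, SE 0.27, adjusted p = 1.66e-10). Of the 13 proteins encoded in mitochondrial DNA, the products of this ribosome, 12 were higher at 46h against 0h and none was lower (median 2.68), ATP8, listed at 0 in mean at 0h and 46h, being without a call. These RNAs, like all others here, were read through an oligo-dT primer, so the values count polyadenylated RNA. The partners of those products that are encoded in the nucleus, the other subunits of the respiratory chain and ATP synthase, counted 42 lower and 2 higher of 54 (median -2.14), the 2 being ATP5F1C (251 ± 39.9, 396 ± 55.02 and 482 ± 41.96 FPKM at the 3 times) and ATP5MC3 (14.1 ± 0.851, 14.3 ± 1.56 and 24.5 ± 3.26 FPKM at the 3 times). Cytosolic ribosomal proteins counted 32 lower and 2 higher of 41 (median -2.09), the 2 being RPLP0 (112 ± 6.08, 147 ± 11.7 and 316 ± 72.7 FPKM at the 3 times) and RPS3A (5.36 ± 2.14, 8.32 ± 2.94 and 8.45 ± 1.31 FPKM at the 3 times).

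The early and late shares of the lists can be set side by side. At 22h against 0h, 52.7% of the mitochondrial ribosomal proteins were lower, 53.7% of the nuclear-encoded respiratory chain and 31.7% of the cytosolic ribosomal proteins, beside 18.9% over the whole set of genes. At 46h against 22h the shares were 65.5%, 63.0% and 78.0%, beside 32.6%. The lists share the libraries, and the differences between them were not tested.

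**Figure D4:**
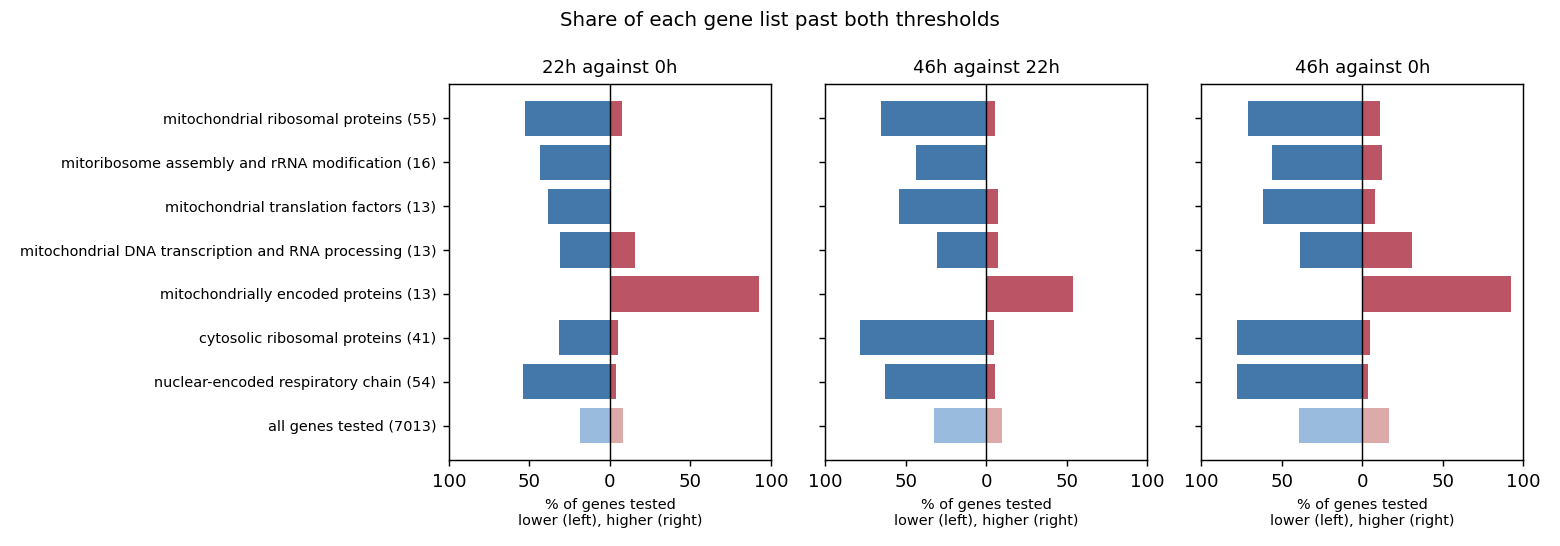
Share of the genes tested in each list (number in brackets) that were lower (bars to the left) or higher (bars to the right) in the 3 comparisons, in percent, with all 7013 genes tested in pale colours. At 46h against 0h, 70.9% of the mitochondrial ribosomal proteins were lower, 77.8% of the nuclear-encoded respiratory chain and 39.1% of all genes, while 92.3% of the mitochondrially encoded proteins were higher.

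A further 5 identifiers are named as mitochondrial ribosomal proteins only in the table of changed genes that accompanies the study, and were kept out of all counts, since that table was made from changes in these libraries. They are MRPL14, MRPL27, MRPL41, MRPL42 and MRPS28, and all were lower at 46h against 0h, with log2 fold changes from -4.66 (MRPL14) to -2.94 (MRPS28). The most abundant, MRPS28, was 238 ± 78.5, 117 ± 34.7 and 29.3 ± 4.95 FPKM at the 3 times (SD, n = 4).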

How the data were processed

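RNA of denuded oocyte pools was amplified by SMART-Seq2 from an oligo-dT primer. As deposited, each of the 12 tables gives one FPKM value per Ensembl identifier, which the authors obtained with RSEM after trimming with Trim Galore and alignment with STAR to the pig genome (Sscrofa11). RSEM divides reads that match several places among them, so that near-identical gene copies are uncertain. No counts were at hand, so a count model was not used, depth is unknown, and precision rests on the 4 replicates.

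Symbols came from a gene name table, which named 15029 of the 31908 identifiers. The transform was log2(FPKM + 1), the filter a mean of at least 1 FPKM (7013 genes), and the model limma 3.58.1 in R 4.3.3 (lmFit, eBayes with trend) with one mean per stage, two-sided, with Benjamini-Hochberg adjustment over all 7013 genes. Calls needed an adjusted p under 0.05 and a fold change over 1.5. Errors are SD or SE, and intervals are 95%. The script was tested on simulated data. Members under the filter were compared by exact permutation (70 arrangements).

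Members given in every library were those higher in any comparison, the 4 largest falls of each comparison, the 5 highest means, and MRPL12, MRPL58, MRPS30, MRPS18A and MRPS12 for their roles. Genes of other lists were named where they moved against most of their list. MRPL17, MRPL22, TFB1M, MALSU1, TUFM, GFM1, SSBP1 and the neighbouring genes were chosen after their values were seen. The members, lists and rules were chosen with earlier results of these data known. Alternatives were another pseudocount, filter, scaling or threshold, TPM with and without mitochondrially encoded genes, only the groups compared, no trend, a block for the replicate number, each library left out, and, added after seeing the data, the 5 genes named by the table of changed genes. The authors' own comparison columns in that table (fold changes and p-values) were not used. Gene models and sequences are from NCBI RefSeq for Sscrofa11.1 (62 of 64 members matched by symbol), read with pysam 0.24.0; the FPKM tables hold no coordinates. Tables and figures were made with Python 3.11.15, pandas 2.3.3 and matplotlib 3.10.9.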

Additional observations from a re-analysis of the deposited data

Results flagged for a closer look

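Over 90 groups of 4 libraries (each member given in every library, the summed level and both shares of total FPKM, at each stage), 11 had a highest library that lay far from the other 3 by Dixon's test. Chance alone flags about 1 in 20 groups.

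Of these, 6 concern replicate 4 of 0h. It held 439 FPKM of MRPL33 against 182 to 224 in the other 0h libraries, 36.4 FPKM of MRPL58 against 24.8 to 25.6, 1.26 FPKM of MRPS12 against 0.16 to 0.32 and 4489 FPKM of MRPS14 against 2173 to 2542. The members' share of total FPKM was 1.28% in it (1.28207 before rounding) and 0.957% to 0.970% in the others, and without the mitochondrially encoded genes in the total 1.33% (1.32552 before rounding) and 0.975% to 1.01%. Without this library, 6 members were higher and 27 lower at 22h against 0h in place of 4 and 29, and 7 higher and 39 lower at 46h against 0h in place of 6 and 39.

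The other 5 are low values. At 22h, MRPS7 stood at 2.44 FPKM in replicate 1 against 0.96 to 1.06, and MRPS18A at 0.49 FPKM in replicate 4 against 0.18 to 0.21. At 46h, MRPL12 was at 0.19 FPKM in replicate 1 MRPS7 at 0.23 FPKM in replicate 3 and MRPL17 at 0.02 FPKM in replicate 4, each with the other 3 libraries listed at 0.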

How the results depend on the processing

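The 6 members higher and the 39 lower at 46h against 0h kept these calls in every alternative fit, except that 8 of the 39 fell outside a filter of 5 FPKM and were not tested. Among the 39, MRPL2, MRPL10, MRPL12, MRPL28, MRPL30, MRPL48, MRPL54, MRPS7, MRPS11 and MRPS18C passed the filter through their high stages. For them the kept calls are a description. The median log2 fold change of the members at 46h against 0h, -1.998 as reported, was -2.83 with a pseudocount of 0.1, -1.83 with no filter, -2.18 with a mean of at least 5 FPKM, -1.79 with median-of-ratios scaling, -1.52 with quantile normalization and -2.29 with TPM. At 46h against 22h, -1.24 as reported, it was -1.74 with a pseudocount of 0.1, -1.45 with a mean of at least 5 FPKM, -0.76 with quantile normalization and -1.02 with median-of-ratios scaling. The number of members higher at 46h against 0h was 12 with quantile normalization in place of 6, and at 46h against 22h it was 7 with quantile normalization and 10 with median-of-ratios scaling in place of 3. The cause of these shifts was not tested. With each library left out, 22h against 0h gave 4 to 6 members higher and 26 to 30 lower, 46h against 22h gave 3 to 4 and 35 to 37, and 46h against 0h gave 6 to 7 and 39 to 40. Medians with a library left out ran from -0.91 to -0.73, from -1.30 to -1.06 and from -2.11 to -1.87 in that order. Whether same-numbered replicates go together was read from each library's deviations from its stage mean, gene by gene, not from the levels themselves. These deviations correlated at -0.47 to 0.08 between 22h and 0h and at -0.28 to 0.08 between 46h and 0h. Between 46h and 22h all 4 were positive, from 0.0088 to 0.38, and 3 of 4 correlated best with their own number, a hint from the data, though not every pair was over 0.1 and the labels name no shared source. With the replicate number as a block the calls were 4 higher and 27 lower, 3 and 35, and 6 and 39. With the 5 genes named by the table of changed genes, added after seeing the data, there were 34, 41 and 44 members lower. None of these counts and medians, and no called change of a member described in every library, reversed, but MRPS27 (-0.05 at 46h against 0h as deposited) was called higher with quantile normalization. The depth of the libraries is unknown, so values near 0 FPKM cannot be told from absence.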
